A study of Mus musculus with 2 samples.

Results

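The 5 kainate receptor subunit genes Grik1 to Grik5 and the genes Neto1 and Neto2 of their auxiliary subunits were examined in the cerebral cortex of young mice, 7 genes of the 55536 that the gene tables hold. The members were taken by symbol, and each had a single gene identifier, with 40 annotated transcripts among them. The material was left cerebral cortex from female B6CASTF1/J mice, an F1 cross of C57BL/6J and CAST/EiJ, at an age of 10 days. The 2 libraries form a single group, biological replicates 1 and 2, made from the total RNA (300 ng) of separate females after ribosomal RNA reduction. No treated or older animals were analysed here, so the comparisons are those between genes within a library, between transcripts of a gene, and between the animals. The labels give a shared donor entry for the animals and do not say whether they were littermates, and the spread between them may be partly technical.

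Kainate receptors are tetrameric, glutamate-gated cation channels. The GluK1, GluK2 and GluK3 subunits (genes Grik1, Grik2 and Grik3) can form channels alone, whereas GluK4 and GluK5 (Grik4 and Grik5) bind glutamate with high affinity and need a partner from the GluK1 to GluK3 set to make a working channel. Neto1 and Neto2 are single-pass membrane proteins with CUB domains that bind the receptor and slow its closing. In the cortex these receptors act on both sides of the synapse and are known for modulating transmitter release and for slow synaptic currents.

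All 7 genes were detected, taken as 1 TPM or more in both libraries, where TPM is a length-normalised relative abundance. The high-affinity subunit gene Grik5 was the highest of the 7, both Neto genes followed, then Grik2 and Grik3, then Grik1, and Grik4 was the lowest. The median member stood at 34.2 ± 6.65 TPM (SD, n = 2, as for every mean below), above the 16.6 ± 0.852 TPM of the median among 13004 detected protein-coding genes. Of the 6 neighbouring pairs in the order of mean TPM, 4 had both libraries of the higher gene above both libraries of the lower gene, and the deposited credible intervals of those pairs were also apart. Neto2 and Neto1 overlapped, and so did Grik2 and Grik3. Expected reads on genes numbered 29867112 for replicate 1 and 31031340 for replicate 2, and the members had between 539 and 7536 reads each. All 6 of the listed cortical projection neuron markers were detected, and the genes of that list summed to 772 TPM in replicate 1 and 777 TPM in replicate 2. In bulk tissue, fewer cells of a type and less RNA per cell cannot be told apart. With 1 group of 2 animals no p-value was computed.

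**Figure D1:**
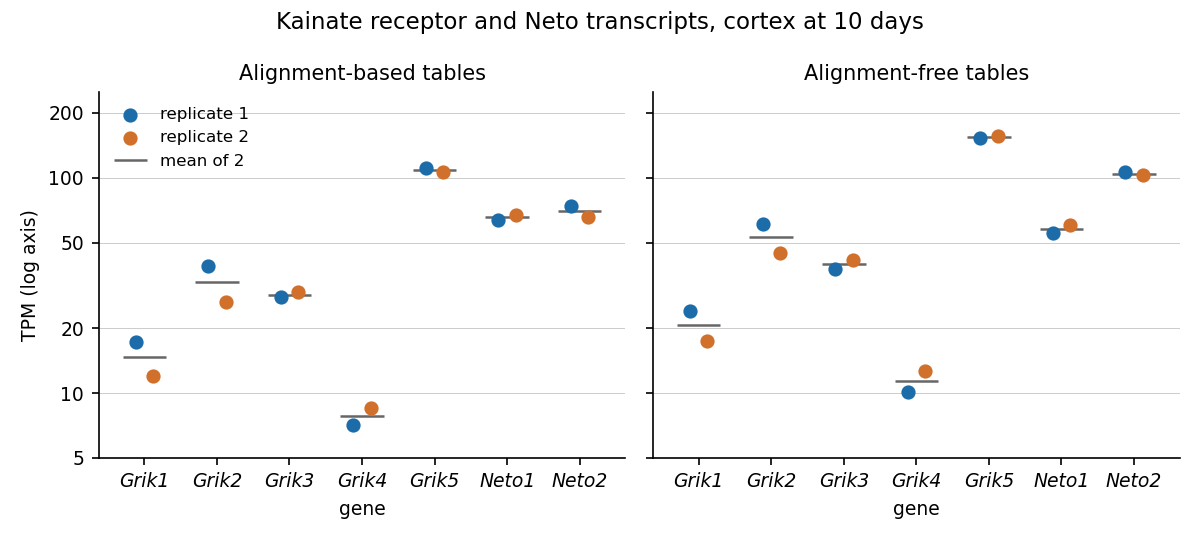
TPM of the 7 genes on a log axis, from the alignment-based tables (left) and the alignment-free tables (right), with a point for each library and a line for the mean. Grik5 is highest with 111 and 107 TPM in the alignment-based tables and Grik4 lowest with 7.14 and 8.49 TPM.

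Among the subunits that can form channels alone, Grik2, which encodes the most widely studied subunit GluK2, lies on the minus strand of chr10:49094833-49788766 (mm10, as are all positions given). It had 38.9 TPM in replicate 1 and 26.4 TPM in replicate 2, a mean of 32.6 ± 8.80 TPM, from 2719 and 1978 expected reads. Grik3 (chr4:125490700-125714173, plus strand) had 27.8 TPM in replicate 1 and 29.5 TPM in replicate 2, a mean of 28.6 ± 1.17 TPM, from 4621 and 5352 reads. The libraries therefore put Grik2 above Grik3 in replicate 1 and below it in replicate 2, with log2 ratios of 0.48 and -0.16 and a mean of 0.16 ± 0.45, which is within the spread. The only annotated transcript of Grik3 is 8973 bases long, and TPM divides reads by length. Its TPM lies just above the upper bounds of its own deposited intervals, 27.6 and 29.3 TPM. Grik1 (chr16:87895900-88290265, minus strand), whose product GluK1 is known from GABAergic interneurons of the cortex, had 17.3 TPM in replicate 1 and 11.96 TPM in replicate 2, a mean of 14.6 ± 3.79 TPM, from 1028 and 778 reads. Grik2 exceeded Grik1 by a similar factor in each animal. The log2 ratio of Grik2 to Grik1 was 1.16 in replicate 1 and 1.14 in replicate 2, a mean of 1.15 ± 0.02 or 2.22-fold, beyond the spread, taken as the same sign in both libraries and a mean above 2 SD.

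The high-affinity genes were the extremes of the set. Grik5 (chr7:25009849-25072346, minus strand) had 111 TPM in replicate 1 and 107 TPM in replicate 2, a mean of 109 ± 3.40 TPM, from 6989 and 7536 reads. Grik4 (chr9:42518135-42944493, minus strand), whose product GluK4 is best known from hippocampal CA3 neurons, had 7.14 TPM in replicate 1 and 8.49 TPM in replicate 2, a mean of 7.82 ± 0.955 TPM, from 539 and 683 reads. Grik5 thus lay above 93.1% of the detected protein-coding genes and Grik4 above 28.8% of them. The log2 ratio of Grik5 to Grik4 was 3.94 and 3.63, a mean of 3.79 ± 0.22 or 13.8-fold. Grik5 took 54.99% of the summed TPM of the 5 subunit genes in replicate 1 and 58.3% in replicate 2, while Grik4 took 3.53% and 4.64%. Grik2 supplied 19.2% and 14.4%, Grik3 13.7% and 16.1%, and Grik1 8.56% and 6.54%. Summed by class, Grik1 to Grik3 reached 84.0 TPM in replicate 1 and 67.8 TPM in replicate 2, against 118 and 115 TPM for Grik4 and Grik5 together. The mean log2 ratio of those sums was -0.63 ± 0.19, beyond the spread, so that RNA of the subunits needing a partner was 1.55-fold that of the subunits able to stand alone.

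The auxiliary subunit genes were close to each other. Neto1 (chr18:86394952-86506718, plus strand) had 63.7 TPM in replicate 1 and 67.4 TPM in replicate 2, a mean of 65.5 ± 2.59 TPM, from 5639 and 5875 reads. Neto2 (chr8:85636588-85700924, minus strand) had 73.7 TPM in replicate 1 and 65.6 TPM in replicate 2, a mean of 69.7 ± 5.72 TPM, from 5805 and 5734 reads. Neto1 was the lower in replicate 1 and the higher in replicate 2, and the mean log2 ratio of -0.09 ± 0.18 was within the spread. This near equality depended on how reads were assigned to transcripts, as the tables of the alignment-free quantification show further on. Both Neto genes together had 137 and 133 TPM, against 202 and 183 TPM for the 5 subunit genes. Their log2 ratio was -0.56 in replicate 1 and -0.46 in replicate 2, a mean of -0.51 ± 0.07, so that subunit RNA was 1.42-fold the auxiliary subunit RNA. The size of this ratio also depended on read assignment. Its mean was -0.79, or 1.72-fold, in the alignment-free tables and -0.65 with coding transcripts only.

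Set among the 18 ionotropic glutamate receptor genes, Grik5 had rank 4 by mean TPM and was the only kainate receptor gene of the upper 9. It stood between the NMDA receptor gene Grin2b at 160.5 ± 14.98 TPM and the AMPA receptor gene Gria1 at 96.8 ± 15.8 TPM. Above it were also Gria2 at 203 ± 23.9 TPM and Grin1, the obligatory NMDA receptor subunit gene, at 191 ± 0.0919 TPM. Grik2 and Grik3 were next to each other in ranks 10 and 11, between Grin3a at 37.7 ± 4.04 TPM and Grid1 at 23.0 ± 1.07 TPM. Grik1 came next below Grin2d, which had 17.4 ± 0.742 TPM. Grik4 came next above Grin2c, which had 7.38 ± 0.156 TPM, and only Grin3b, with 6 and 8 reads, was not detected. The Neto genes are not receptor subunits, and Neto2 lay between Gria1 and Grin2a, which had 62.9 ± 1.24 TPM. Neto1 overlapped with Grin2a, with 63.7 TPM against 63.8 TPM in replicate 1 and 67.4 TPM against 62.0 TPM in replicate 2, and in the alignment-free tables it was lower, with 55.1 and 60.1 TPM against 81.2 and 96.5 TPM. The remaining AMPA receptor genes, Gria3 at 60.8 ± 7.64 TPM and Gria4 at 39.2 ± 4.36 TPM, were both above Grik2 by mean.

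By receptor class, the 5 kainate receptor genes summed to 193 ± 13.9 TPM, against 400 ± 51.7 TPM for the 4 AMPA receptor genes and 477 ± 20.7 TPM for the 7 NMDA receptor genes. The log2 ratio of the kainate to the AMPA sum was -1.11 in replicate 1 and -0.99 in replicate 2, a mean of -1.05 ± 0.08, or 2.07-fold lower. Against the NMDA sum it was -1.28 and -1.34, a mean of -1.31 ± 0.04, or 2.48-fold lower. Both differences were beyond the spread between the animals. The family median over its 18 genes was 35.95 ± 5.34 TPM, and 17 of the 18 were detected.

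**Figure D2:**
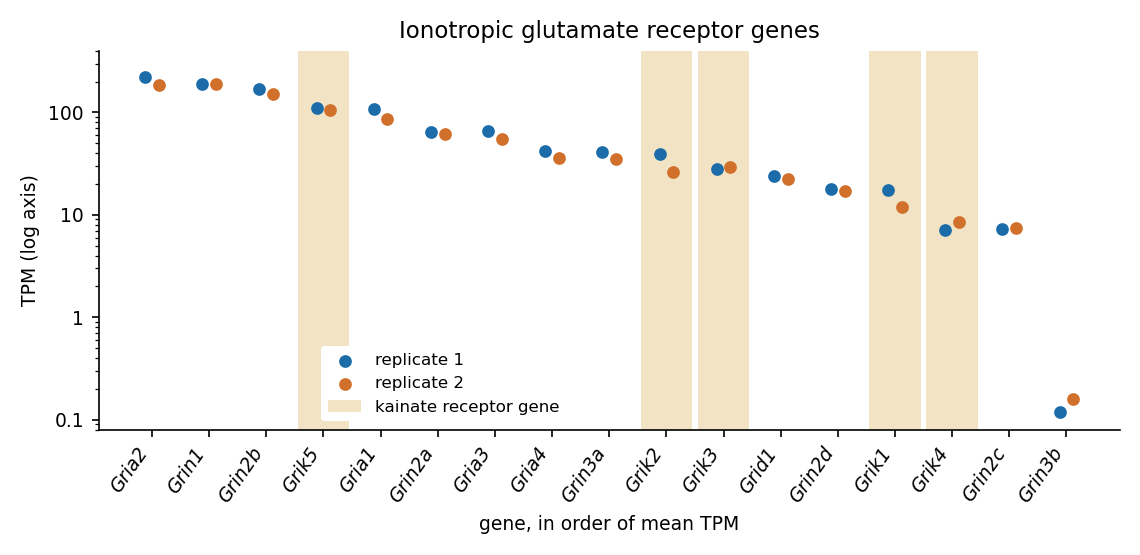
TPM of 17 of the 18 ionotropic glutamate receptor genes on a log axis, with a point for each library, in the order of mean TPM and with the kainate receptor genes shaded. Grik5 has rank 4 of 18 at 109 TPM, and the other kainate receptor genes lie between 7.82 and 32.6 TPM.

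Genes whose products bind, place or modify kainate receptors were examined as a list of 12, of which 11 were analysed and 10 detected. The median of the receptor and Neto genes was 34.2 ± 6.65 TPM, against 48.7 ± 3.02 TPM for the partner list. The scaffold gene Dlg4 (PSD-95) had 443 ± 18.6 TPM, above all 7 members, and its relative Dlg1 had 49.4 ± 2.06 TPM. Snap25, which encodes a SNARE protein of the presynaptic terminal, had 592 ± 3.24 TPM. Grip1 and Pick1, which encode PDZ domain proteins that bind receptor tails, had 21.6 ± 1.499 TPM and 26.5 ± 0.170 TPM. Adar and Adarb1, which encode the RNA-editing enzymes known to recode Grik1 and Grik2 transcripts, were near each other at 52.7 ± 4.47 TPM and 49.7 ± 4.39 TPM. The motor protein gene Kif17 had 7.41 ± 0.0424 TPM. The C1q-like genes differed widely, since C1ql3 had 26.1 ± 3.62 TPM while C1ql2, known from hippocampal mossy fibres as an organiser of kainate receptors, had 0.825 ± 0.134 TPM from 26 and 36 reads and was not detected. That call depended on the scale. C1ql2 had 1.08 and 1.28 TPM in the alignment-free tables, where 11 partner genes were detected, as also after rescaling over protein-coding genes.

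Between the animals, Grik1, Grik2 and Grik4 differed by 1.2-fold or more, 3 of the 7 genes. Library differences were taken as log2 ratios of TMM-scaled reads, replicate 2 over replicate 1, and 20.5% of the 16459 genes with a mean of 20 reads or more were 1.2-fold or more apart in either direction. Below replicate 1 in this way were 2 of the 7, against 13.1% of all genes, and above it 1 of the 7, against 7.36% of all genes. All 7 are protein-coding, and of the 13935 protein-coding genes with enough reads 14.1% were past the limit in either direction, 7.47% lower and 6.59% higher in replicate 2. Grik2 was 1.40-fold lower in replicate 2, at a log2 ratio of -0.48 with a counting interval (exact binomial, 95%) from -0.57 to -0.40. Grik1 was 1.34-fold lower in replicate 2, at -0.43 with an interval from -0.56 to -0.29. Grik4 was 1.25-fold higher in replicate 2, at 0.32 with an interval from 0.15 to 0.48, which reaches below 1.2-fold. Grik2 and Grik1 were thus lower in the same animal, in which Grik4 was higher. With 2 animals, a shared direction of genes is no measure of joint change. Of the 13 other ionotropic receptor genes, 12 had enough reads, and 0 of them were past the limit, their ratios lying between -0.17 and 0.16. In the partner list C1ql2 alone was past it, higher in replicate 2 at 0.44 on its 26 and 36 reads. The other 4 members were within 1.2-fold, Grik3 at 0.19, Grik5 at 0.08, Neto1 at 0.03 and Neto2 at -0.04. These intervals cover counting error only, and with 1 animal a side no interval covers the spread between animals.

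**Figure D3:**
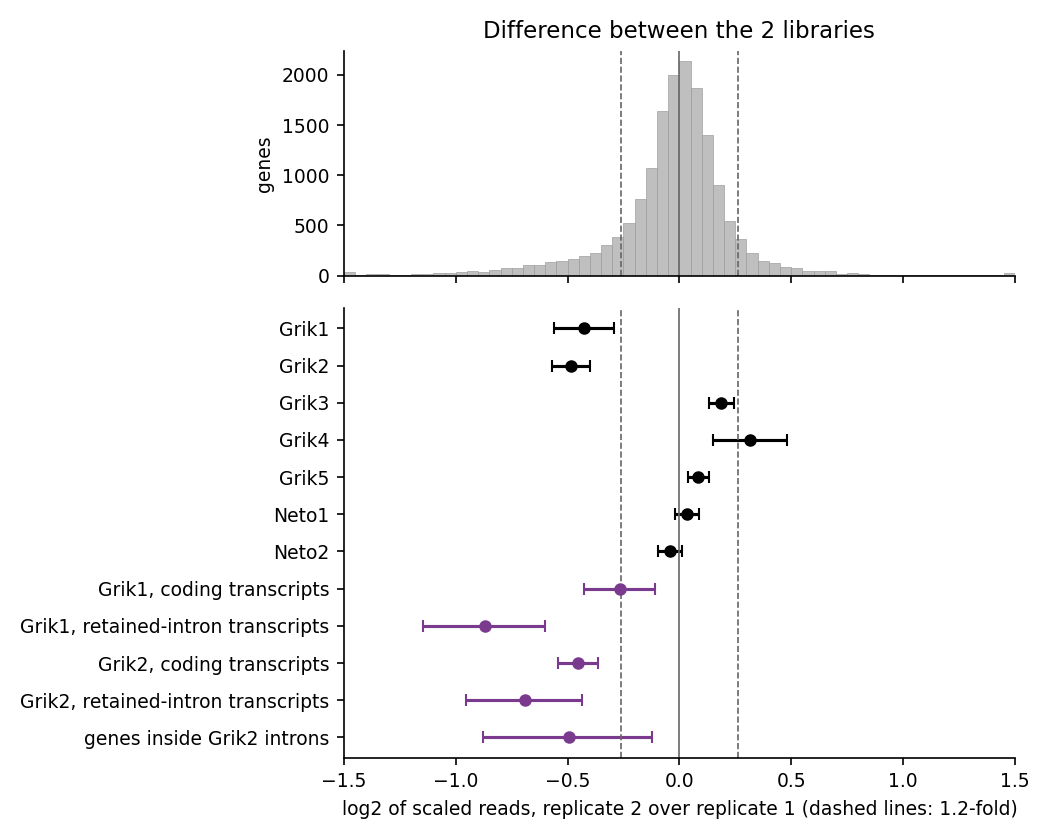
Distribution of the log2 ratio of TMM-scaled reads, replicate 2 over replicate 1, over 16459 genes (top, the outermost bins holding all values beyond them), and below it the ratios of the 7 members in black and of transcript groups of Grik1 and Grik2 in purple, with 95% counting intervals. Grik1 and Grik2 lie below the limit of 1.2-fold, Grik4 lies above it, and the other 4 members lie within it.

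Some other measures also differed between the animals, and their part in the differences of Grik1, Grik2 and Grik4 was not tested. Markers are counted as lower or higher only when past the limit of 1.2-fold. Sums in TPM carry a shift of scale, since the median log2 ratio over 16459 genes was -0.11 in TPM and near 0 after TMM scaling. Malat1 and Meg3, long RNAs that stay in the nucleus, were chosen after their values were seen, and had log2 ratios of -0.45 and -0.42, with 2032 and 1210 TPM in replicate 2 against 2989 and 1625 TPM in replicate 1. In the GABAergic interneuron list, 2 of 10 markers were lower in replicate 2 (Gad1 at -0.28 and Calb2 at -0.54) and none was higher. The median log2 ratio of that list was 0.002 in TMM-scaled reads, and it summed to 402 TPM in replicate 2 and 442 TPM in replicate 1. In the striatal list 2 of 6 (Drd2 and Ppp1r1b) were lower in replicate 2, with a sum of 72.9 TPM in replicate 2 and 89.1 TPM in replicate 1. Its median log2 ratio in TMM-scaled reads was -0.24. All 4 markers of myelinating oligodendrocytes were higher in replicate 2, by 0.77 to 1.41, with sums of 336 TPM in replicate 2 and 173 TPM in replicate 1. Of the projection neuron markers 2 of 6 were higher in replicate 2 and none lower, and none of the 4 astrocyte or 3 oligodendrocyte precursor markers was past the limit. The 4 hippocampal markers, of which 2 were detected, summed to 39.0 TPM in replicate 2 and 46.5 TPM in replicate 1, and the 4 markers of cerebellar granule cells to 17.6 TPM in replicate 2 and 22.3 TPM in replicate 1. In TMM-scaled reads the median log2 ratio was -0.08 over 2 hippocampal and -0.24 over 3 cerebellar markers with enough reads, and none of these was past the limit. By gene length, protein-coding genes spanning 300 kb or more had a median of -0.04 over 532 genes, against 0.05 over 3224 genes spanning under 10 kb. Past the limit were 11.8% lower and 2.82% higher in replicate 2 among those of 300 kb or more, against 6.73% lower and 9.99% higher among those under 10 kb. Grik1, Grik2 and Grik4 all span more than 300 kb.

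Taken as a group, the Grik1 transcripts annotated as retaining an intron had a lower ratio than its coding transcripts. The reads of its 7 coding transcripts were 603 in replicate 2 and 713 in replicate 1, a log2 ratio of -0.27, and those of its 4 retained-intron transcripts were 175 in replicate 2 and 315 in replicate 1, a ratio of -0.87. The counting intervals were -0.43 to -0.11 and -1.15 to -0.60, but they leave out error in assigning reads among overlapping transcripts. The retained-intron transcript of 3116 bases went the other way, with 0 reads in replicate 1 and 33.8 in replicate 2. In Grik2 the ratio was -0.45 for coding and -0.69 for retained-intron transcripts, with overlapping intervals. The 6 genes annotated inside Grik2 introns on its strand, which share no exon with it, together had 103 reads in the library of replicate 2, against 143 in that of replicate 1. Their ratio was -0.50 with an interval from -0.88 to -0.12, which reaches within 1.2-fold. Gm47018 among them went the other way, with 6 reads in replicate 1 and 8 in replicate 2. Retained-intron transcripts were 36.7% and 28.0% of Grik1's TPM in replicates 1 and 2, whereas over 7549 detected coding genes with such a transcript the median share was 11.1% and 9.16%. For Grik2 the share was 11.2% and 10.9%, close to those medians, and for Grik5 it was 8.43% and 5.92%. Grik3 and Grik4 have coding transcripts only.

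**Figure D4:**
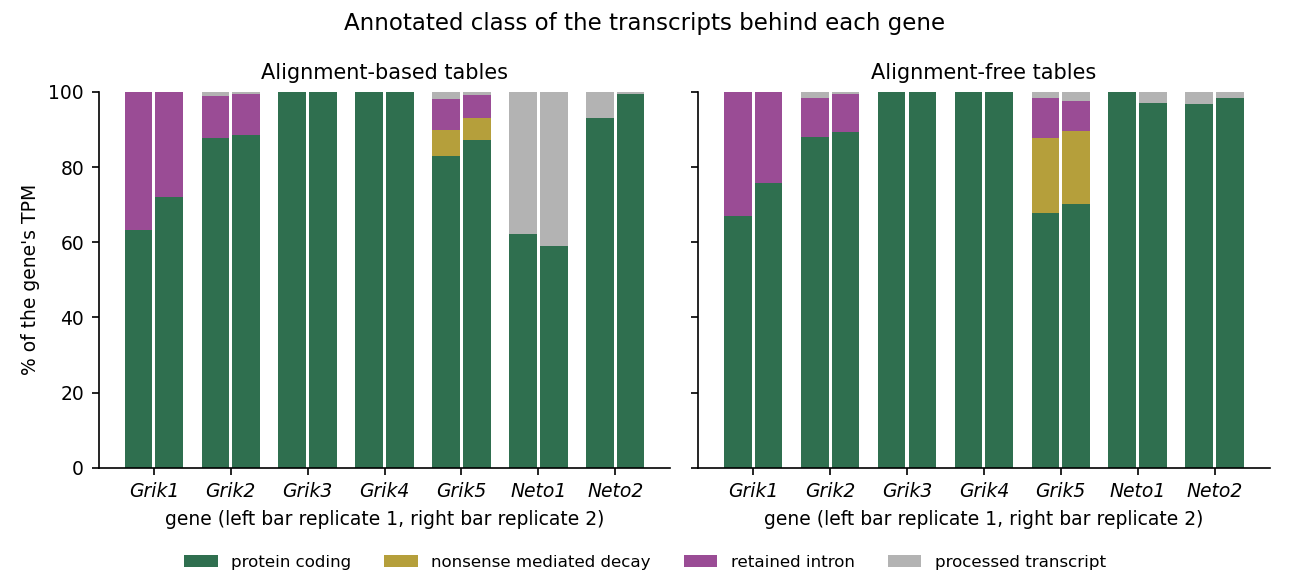
Share of each gene's TPM in coding, retained-intron, nonsense-mediated decay and processed noncoding transcripts, with replicate 1 as the left and replicate 2 as the right bar of a pair. Grik1 has the largest retained-intron share, at 36.7% and 28.0%, and the processed share of Neto1 is 0% and 2.97% in the alignment-free tables, against 37.9% and 41.1% in the alignment-based ones.

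Annotated transcript forms of Grik1 and Grik2 differ in stretches of coding sequence that change the protein, and the stretches that set the forms apart are shown from GENCODE M21 transcripts on mm10, read 5′ to 3′ on the minus strand, with the form-specific bases in capitals and the 15 shared bases before or after them in lower case. In Grik1 a cassette exon of 87 bases, 29 codons, lies at chr16:87896809-87896895, in the part that encodes the intracellular tail, and a cassette exon of 45 bases, 15 codons, lies at chr16:87955289-87955333. In Grik2 the last coding part is 162 bases at chr10:49101111-49101272, as in the form of 908 codons, or 45 bases at chr10:49105021-49105065, as in the form of 869 codons. In a truncated form of 338 codons it is a separate part of 63 bases at chr10:49496098-49496160, joined to the coding part before it.
Grik1 exon of 87 bases: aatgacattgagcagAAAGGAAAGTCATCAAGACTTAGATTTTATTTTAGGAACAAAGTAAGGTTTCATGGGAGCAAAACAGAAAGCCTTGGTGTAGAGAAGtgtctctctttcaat
Grik1 exon of 45 bases: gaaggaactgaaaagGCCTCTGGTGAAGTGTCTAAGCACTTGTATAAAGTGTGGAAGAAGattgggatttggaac
Grik2 end of the 908-codon form: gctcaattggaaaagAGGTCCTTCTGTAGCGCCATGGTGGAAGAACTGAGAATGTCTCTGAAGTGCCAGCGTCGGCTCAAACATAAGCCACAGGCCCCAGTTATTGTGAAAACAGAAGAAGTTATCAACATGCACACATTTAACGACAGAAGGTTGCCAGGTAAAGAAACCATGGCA
Grik2 end of the 869-codon form: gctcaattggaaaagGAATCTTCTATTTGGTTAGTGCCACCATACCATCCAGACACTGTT
Grik2 end of the 338-codon form: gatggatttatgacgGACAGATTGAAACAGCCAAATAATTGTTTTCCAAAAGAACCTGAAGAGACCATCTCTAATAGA

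In Grik1 the 87-base exon was present in 56.1% of the TPM of the compared coding transcripts in replicate 1 and in 39.6% in replicate 2, and the alignment-free tables gave 52.8% and 41.0%. The reads of the forms with it were 248 in replicate 2 and 410 in replicate 1, a log2 ratio of -0.75 with an interval from -0.98 to -0.52, while those of the forms without it stood at 0.20 with an interval from -0.02 to 0.43. The 45-base exon was present in 6.38% in replicate 1 and 20.6% in replicate 2, and the alignment-free tables gave 7.52% and 18.6%. The tables reached these shares through different transcripts. In the alignment-based tables all of it came from the 920-codon transcript, with 41 and 113 reads, which was near 0 in the alignment-free tables. There the 871-codon transcript supplied 1.21 TPM in replicate 1 and 0.924 TPM in replicate 2. The 949-codon transcript was near 0 in replicate 1 and had 1.54 TPM in replicate 2. In Grik2 the 908-codon form, the rat counterpart of which is called GluK2a, took 38.7% and 45.7% of the TPM of compared coding transcripts, the 869-codon form, GluK2b in rat, took 33.4% and 29.2%, and the truncated form took 27.9% and 25.1%. The 908-codon form led in both animals, and in the alignment-free tables the shares were 38.8% and 43.3%, 35.2% and 35.5%, and 25.97% and 21.2%. The truncated form is the shortest of them at 2085 bases, and as shares of expected reads it had a mean of 13.9%, against 62.0% for the 908-codon and 24.1% for the 869-codon form. Whether the reads of the truncated form come from that transcript or from unspliced RNA was not tested.

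**Figure D5:**
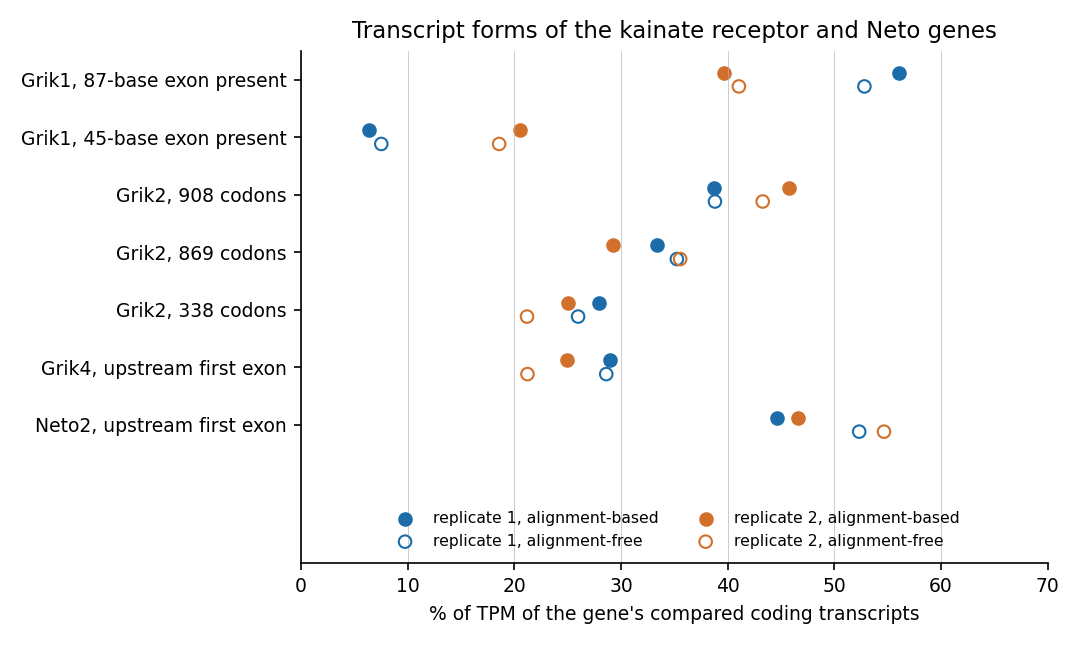
Percent of the TPM of each gene's compared coding transcripts in named forms, in blue for replicate 1 and orange for replicate 2, filled for the alignment-based and open for the alignment-free tables. The 87-base exon of Grik1 lies at 56.1% in replicate 1 and 39.6% in replicate 2, and the upstream first exon of Neto2 between 44.6% and 54.6% in all 4 tables.

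Grik4 and Neto2 have coding transcripts that begin at different first exons, and Grik5 and Neto1 have a single main coding transcript. In Grik4 the transcript with the downstream first exon, 136 kb from the upstream start, took 71.0% and 75.03%, and the upstream start 29.0% and 24.97%. The 2 transcripts have identical annotated coding parts of 956 codons. They are 3413 bases (downstream) and 5887 bases (upstream) long, so their shares do not measure start use alone. As shares of expected reads, the upstream form had 41.7% and 36.7%. Between the animals, the reads of the downstream form had a log2 ratio of 0.43 with an interval from 0.22 to 0.65, and those of the upstream form 0.13 with an interval from -0.13 to 0.40, so the intervals overlapped. In Grik5 the 979-codon transcript took 83.0% and 87.3% of the gene's TPM, and transcripts annotated for nonsense-mediated decay took 6.76% and 5.88%, against 20.1% and 19.5% in the alignment-free tables. In Neto2, transcripts starting at the downstream exon took 55.4% and 53.4% and those starting upstream 44.6% and 46.6%. The order was turned in the alignment-free tables, with 47.7% and 45.4% for the downstream and 52.3% and 54.6% for the upstream start, so neither start led in all 4 tables. As shares of expected reads, the upstream start had a mean of 30.1%. The 2 main Neto2 transcripts also end at different places, so the shares do not measure start use alone.

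The coding starts of the Neto2 transcripts, 553 codons from the downstream start and 525 from the upstream start, differ in the first bases and then run together, as shown from GENCODE M21 on mm10 for the minus strand, with the start-specific bases in capitals and the shared bases in lower case. The downstream part lies at chr8:85690835-85690973 and the upstream part at chr8:85700641-85700674, and the coding starts are 9.70 kb apart.
Neto2 downstream start: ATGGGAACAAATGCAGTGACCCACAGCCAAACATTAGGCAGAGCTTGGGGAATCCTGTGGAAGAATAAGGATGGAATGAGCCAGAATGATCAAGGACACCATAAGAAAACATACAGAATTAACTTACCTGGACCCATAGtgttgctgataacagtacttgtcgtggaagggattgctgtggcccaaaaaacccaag
Neto2 upstream start: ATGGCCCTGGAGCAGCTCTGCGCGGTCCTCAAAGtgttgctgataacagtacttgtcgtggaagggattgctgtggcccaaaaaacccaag
The 250 bases before each annotated RefSeq start, from the RefSeq table for GRCm38.p6, are shown because the 2 windows differ in CG dinucleotides, which are in capitals. The motif CG was counted on both strands at the same places, since it reads the same on each. The window before the downstream start (chr8:85691010-85691259) holds 0 CG and is 42.4% G and C, and that before the upstream start (chr8:85700925-85701174) holds 30 CG and is 72.0% G and C. The downstream GENCODE transcript quantified here begins at its ATG, at chr8:85690973. The RefSeq start that sets its window lies upstream of that point, so the 2 annotations place this start differently. Among 32851 promoter windows of this length, 5.94% hold 30 CG or more.
Neto2 window before the downstream start: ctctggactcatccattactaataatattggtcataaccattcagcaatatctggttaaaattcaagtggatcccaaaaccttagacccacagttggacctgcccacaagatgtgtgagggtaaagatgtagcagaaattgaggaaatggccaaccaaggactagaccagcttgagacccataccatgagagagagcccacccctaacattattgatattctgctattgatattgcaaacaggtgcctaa
Neto2 window before the upstream start: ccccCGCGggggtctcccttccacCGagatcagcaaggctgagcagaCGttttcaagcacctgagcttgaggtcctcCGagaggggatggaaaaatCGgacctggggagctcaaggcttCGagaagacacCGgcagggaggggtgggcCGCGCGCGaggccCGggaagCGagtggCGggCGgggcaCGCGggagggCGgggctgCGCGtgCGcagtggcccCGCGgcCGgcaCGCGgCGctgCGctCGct
The windows of the other matched genes held 42 CG for Grik3, 36 for Grik4, 20 for Grik2 and 8 for Grik5, and 5 of the 7 genes had an entry in that table. A count of letters says nothing of use of a start in these animals.

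Neto1 was the gene whose level depended most on how reads were assigned. After scaling both tables over protein-coding genes, the alignment-free tables gave it a level 1.79-fold lower in replicate 1 and 1.84-fold lower in replicate 2 than the alignment-based tables. Of the 7 members, Neto1 alone was 1.5-fold or more apart in the same direction in both libraries, which 1.88% of 13004 detected protein-coding genes were in this direction and 2.24% in the other. A noncoding transcript of 384 bases took 0% and 2.97% of its TPM in the alignment-free tables, against 37.9% and 41.1% in the alignment-based tables, where it held 129 and 162 of the gene's 5639 and 5875 reads. Coding transcripts alone put Neto1 at 39.6 and 39.7 TPM in replicates 1 and 2, and Neto2 at 68.6 and 65.2 TPM. In the alignment-free tables the log2 ratio of Neto1 to Neto2 was -0.94 and -0.77, a mean of -0.85, and with coding transcripts only it was -0.75. Both are beyond the spread, in contrast to the ratio from all transcripts. With TPM as deposited, Grik2 instead of Neto1 was the gene past the limit between the tables. The leading transcript was the same in both libraries for 6 of 7 genes, Grik2 being the exception, and the same in all 4 tables for 4 of 7 (Grik3, Grik4, Grik5 and Neto1). The shares of 2 short coding transcripts were higher in the alignment-free tables. A 539-base Grik2 transcript took 10.9% and 16.5% of its gene's TPM there, against 0% and 3.94% in the alignment-based tables, and a 527-base Neto1 transcript 10.01% and 14.2%, against 6.48% and 9.17%. An exon of 2 Neto1 transcripts overlaps an antisense gene, and both libraries list that gene at 0 reads.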

How the data were processed

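Total RNA of 2 libraries was analysed as a single group. Per the deposited README files, the authors aligned the reads to the mm10 transcriptome (annotation M21) to obtain expected counts and TPM of genes and transcripts. The deposited estimated counts and TPM of alignment-free quantification came from the reads without alignment, per the same files. Tool names and versions, and the credible interval level, were not given in the sources used here. Percent shares and sums per gene were computed here from the deposited TPM. Reads of the F1 animals were quantified against the mm10 reference, alleles were not separated, and reads carrying CAST/EiJ variants may be assigned less well. TPM was scaled by the authors over all rows, of which protein-coding genes took 53.1% and 50.5%.

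Ratios used log2 of TPM + 0.1. Library differences used unrounded expected counts with TMM factors (edgeR 4.0.16), 0.5 added and a mean of 20 reads or more. The median log2 ratio over 16459 genes was -0.11 in TPM and near 0 after TMM, so library differences were taken from TMM-scaled counts. Counting intervals are exact binomial, on counts rounded to whole reads. For transcript groups these counts are estimates, and the intervals leave out error in assigning reads among transcripts. Transcript coordinates came from GENCODE M21. Other steps used R 4.3.3, limma 3.58.1, DESeq2 1.42.0 (size factors of an alternative), matplotlib 3.10.9, pandas 2.3.3, scipy 1.17.1, numpy 2.4.6 and Python 3.11.15. The ratio step was tested on simulated data. The members, lists, limits and transcript groups were chosen with earlier results of these data known. Named were all 7 members, the listed receptor and partner genes, and member transcripts with 10% or more of the gene's TPM in any table, 23 of 40, which are given by form or class rather than each alone. Some genes that the rule takes are counted in their lists but not reported here by name.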

Additional observations from a re-analysis of the deposited data

How the results depend on the processing

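For 43 results, 212 values were recomputed under other settings. Of these, 175 kept their direction and their side of the limit, or moved by less than the spread. With 2 libraries, leaving out either always moves a mean by less than its SD. Such values were therefore counted among the 175 even where the sign changed. Grik2 to Grik3 went from 0.16 to -0.16 without replicate 1, and Neto1 to Neto2 from -0.09 to 0.04. The count is thus no measure of how far levels, shares or ratios depend on a library. Levels differed with the scale they were taken on. The median of the 7 genes was 34.2 TPM as deposited, 49.9 TPM in the alignment-free tables and 65.8 TPM when rescaled over protein-coding genes, the median of the receptor family was 35.95, 52.0 and 69.3 TPM, and that of the partner genes 48.7, 69.9 and 94.0 TPM. The order of mean TPM was the same under each of these scales and with coding transcripts only. In the alignment-free quantification 5 neighbouring pairs were apart, and it was Neto1 and Grik2 that overlapped. The Grik2 to Grik3 ratio turned to -0.020 with coding transcripts only, and the Neto1 to Neto2 ratio passed the spread at -0.85 in the alignment-free tables and -0.75 with coding transcripts only. The last setting was added after the data were seen. The count of 3 genes past the library limit was the same under all 5 alternatives tried.

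Leaving out each library in turn gave a median of 29.5 to 38.9 TPM for the 7 genes, 32.2 to 39.7 TPM for the family and 46.6 to 50.9 TPM for the partners, and log2 ratios of 1.14 to 1.16 for Grik2 to Grik1, -0.16 to 0.48 for Grik2 to Grik3, 3.63 to 3.94 for Grik5 to Grik4, and -0.76 to -0.50 for Grik1 to Grik3 over Grik4 and Grik5. The ratio of Neto1 to Neto2 was -0.21 to 0.04, that of Neto to Grik -0.56 to -0.46, of Grik to Gria -1.11 to -0.99 and of Grik to Grin -1.34 to -1.28. Counts of neighbours apart and of leading transcripts shared between libraries have no value with 1 library. No paired analysis was possible because there is a single group. As shares of expected reads in place of TPM, the Grik2 forms, the Neto2 starts and the Grik4 starts all moved beyond the spread, and the upstream Grik4 start had a mean of 39.2%, against 27.0% of TPM. Depth limits values on few reads, such as C1ql2 at 26 and 36 and the 45-base exon of Grik1 at 41 and 113.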
